A study of Rattus norvegicus with 8 samples.

Results

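The genes described here are 10 that encode Fc receptors and proteins that pass on or shut off the signals of such receptors in primary oligodendrocyte progenitor cell (OPC) cultures given interleukin-4 (IL-4). They were chosen by name (Fcgr2b, Fcgr1a, Fcgr2a, Fcgr3a, Fcer1g, Fcrl2, Cd22, Syk, Lyn and Inpp5d), and each was measured by 1 probe set that the array's gene table pairs with that symbol alone, out of 23188 probe sets and 15037 genes with a symbol of their own. The 8 samples were 4 OPC cultures treated with 20 ng/mL IL-4 over 3 d and 4 with PBS over the same 3 d. All were prepared from brains of Sprague Dawley rats of both sexes at postnatal day 1 to 2. Mixed cells were grown to confluence with serum, then shaken once to remove microglia and again to lift OPCs off the astrocyte layer. OPCs were kept in a serum-free defined medium that held insulin, apo-transferrin, hydrocortisone and the growth factors PDGF and bFGF. Whether these growth factors stayed in the medium during treatment is not stated. The methods give 4 biologic replicates per condition, and the sources used here do not say how many pups went into a culture. RNA was hybridized to Affymetrix Clariom S rat arrays, and all levels are log2 signals, on which a difference of 1 is a 2-fold change. The level of one probe set cannot be set against that of another.

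Fc receptors bind the constant part of antibodies and are best known from macrophages, microglia, mast cells and B cells. Activating receptors signal through an immunoreceptor tyrosine-based activation motif (ITAM), often on the shared gamma chain encoded by Fcer1g: Src family kinases such as Lyn phosphorylate the motif, and Syk docks on it. Inhibitory receptors such as Fcgr2b and Cd22 carry an inhibitory motif (ITIM) that recruits phosphatases, among them SHIP1, the product of Inpp5d, so the balance of both kinds sets how strongly a phagocyte answers antibody-coated material. IL-4 is known to alter the expression of Fc receptors in monocytes and macrophages.

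Of the 10 genes, 3 rose with IL-4 (Fcgr2b, Fcgr2a and Syk), 3 fell (Fcrl2, Cd22 and Fcgr3a) and 4 missed the threshold (Fcgr1a, Fcer1g, Lyn and Inpp5d), by limma at an adjusted p under 0.05 over all 23188 probe sets. Over all probe sets the same test called 31.6% in either direction, 12% higher and 19.7% lower, so a count of 6 in 10 with so few genes is given as a description. With a change of more than 2-fold required as well, Fcgr2b alone rose and the same 3 genes fell, where 2.16% of all probe sets rose and 2.34% fell. The 10 genes were chosen with earlier results of these data known, so the shares over all probe sets are no fair measure for their counts. The IL-4 arrays lay wholly apart from the PBS arrays for Fcgr3a, Fcrl2 and Cd22 and for no gene that rose, and such separation was seen in 32.8% of all probe sets, with the IL-4 arrays higher in 12.2% and lower in 20.6%. Without PBS array 4 the fit called 4 of the 10 genes higher and 3 lower, beside 32.2% of all probe sets called in either direction, 12.5% higher and 19.7% lower. The median log2 difference of the 10 genes was -0.26, beside -0.068 over all probe sets.

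**Figure D1:**
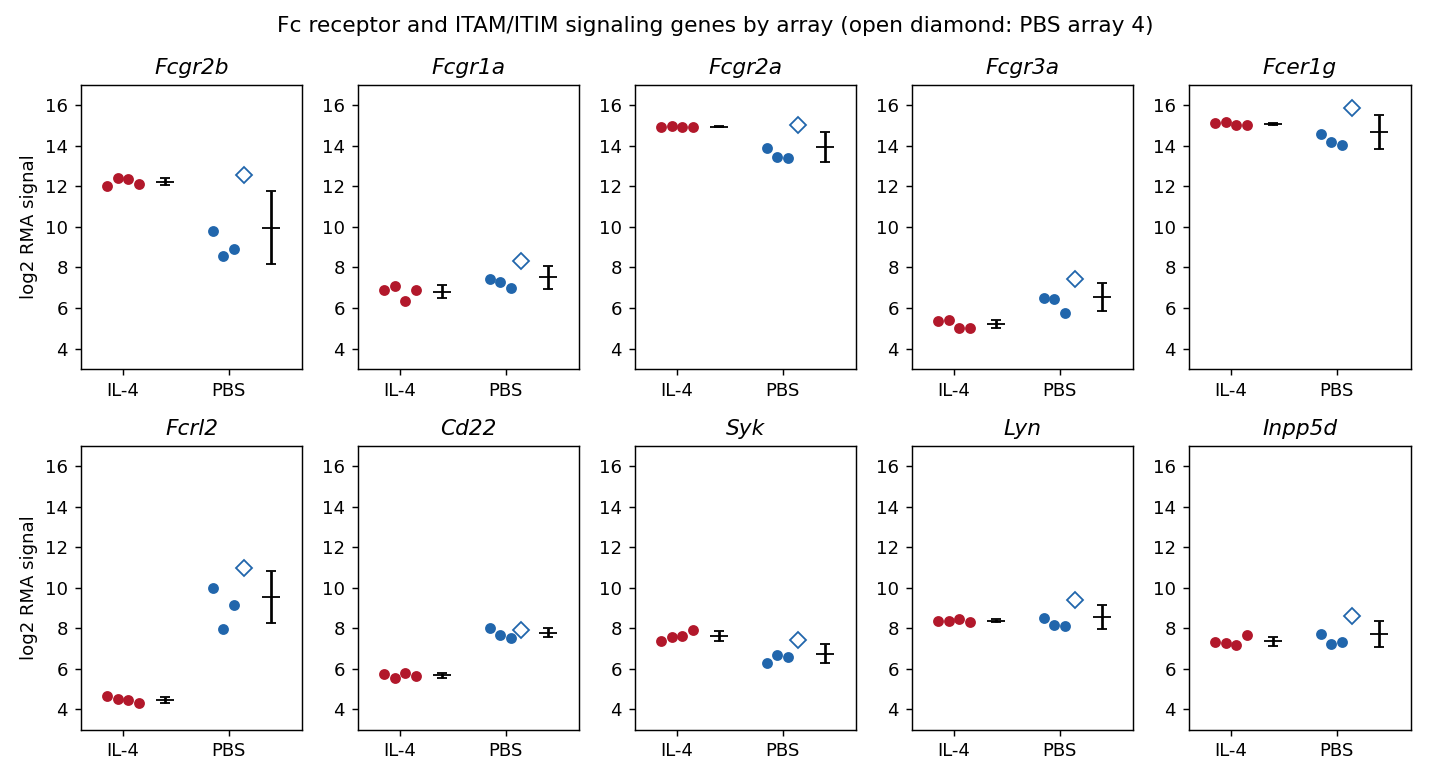
Log2 RMA signal of each of the 10 genes on the 4 IL-4 arrays (red) and the 4 PBS arrays (blue, with PBS array 4 as an open diamond), with the mean and SD in black. The IL-4 arrays lie close together for every gene, and PBS array 4 is the highest of the PBS arrays for all but Cd22.

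PBS array 4 stood apart from the other PBS arrays in these genes and in genes of microglia. It gave the highest PBS level for 9 of the 10 genes and for 23 of 27 microglia and macrophage markers, against 25.3% of all probe sets. Averaged over these markers, the IL-4 arrays gave 8.69 to 8.78, against 8.04 to 8.28 on PBS arrays 1 to 3 and 9.27 on PBS array 4. Of the 27 markers, 7 rose and 4 fell with IL-4, so this mean holds genes that themselves differed between treatments. The largest difference among the 27 was that of Mrc1, at 3.24 on the log2 scale. Among markers that define microglia, Csf1r had a log2 difference of 1.39, P2ry12 one of 1.35 and Aif1 one of 1.01. Cx3cr1 fell, at -1.46, and Itgam did not pass the test at -1.15. Tmem119 also fell, at -0.62, but lay under 5 on every array. In cultures measured as a whole, fewer cells of a type and less RNA per cell cannot be told apart, and the share of microglia was not measured. The markers of the labelled cell type were present: 9 OPC markers averaged 13.71 to 13.81 per IL-4 array and 13.61 to 13.89 per PBS array. B cells carry many of the same receptors, and of 8 B cell markers measured 5 lay under 5 on all arrays, while 2 rose and 1 fell. Of 15 T, NK and mast cell markers 11 lay under 5 on all arrays, while 2 rose and 2 fell. The 9 OPC markers had 1 that rose and 2 that fell, 11 myelin markers had 5 and 1, 10 astrocyte markers had 3 and 3, and 10 neuron markers had 2 and 3.

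Fcgr2b, the inhibitory receptor for IgG, had the largest rise. It measured 12.03, 12.40, 12.34 and 12.14 on the IL-4 arrays, against 9.82, 8.56, 8.91 and 12.57 on the PBS arrays. The IL-4 arrays lay above PBS arrays 1 to 3 by more than 2 log2 units, while PBS array 4 was higher than any of them. The log2 difference was 2.26 (standard error 0.68, 95% interval 0.76 to 3.77, adjusted p = 0.028), a 4.80-fold change of the mean, and the exact permutation test over 70 assignments of the arrays gave p = 0.14. Without PBS array 4 the difference was 3.13 (standard error 0.26, adjusted p = 7.5e-05), and with any 1 of the other 7 arrays left out the adjusted p lay between 0.053 and 0.084, above the threshold. The size of this rise thus turns on which PBS arrays are used. Whether it passes turns on arrays of both treatments and on the test.

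Of the activating receptors for IgG, one rose and another fell. Fcgr2a, to which RefSeq also gives the synonyms Fcgr3, Fcgr3a and Fc gamma RIII, is in rodents the low-affinity activating receptor that pairs with the gamma chain. It measured 14.93, 14.97, 14.93 and 14.93 on the IL-4 arrays, against 13.88, 13.47, 13.42 and 15.01 on the PBS arrays. As for Fcgr2b, the IL-4 arrays were above all PBS arrays but the 4th. The log2 difference was 1.00 (standard error 0.29, adjusted p = 0.024), or 1.99-fold, and 1.35 (standard error 0.13, adjusted p = 1.9e-04) without PBS array 4. Leaving out any 1 of the other 7 arrays gave an adjusted p of 0.052 to 0.072. Fcgr2al1, a gene with a similar name whose probe set was looked at after these values were seen, measured 14.14 to 14.34 on the IL-4 arrays and 12.41 to 13.96 on the PBS arrays, with a log2 difference of 1.44 (adjusted p = 0.0053). Whether the probes of these related receptor genes read separate transcripts was not tested.

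The gene that carries the symbol Fcgr3a itself, which RefSeq also lists as Fcgr4 and CD16-2, is another activating receptor that uses the gamma chain. It measured 5.36, 5.39, 5.02 and 5.03 on the IL-4 arrays, against 6.49, 6.45, 5.76 and 7.42 on the PBS arrays. Each IL-4 array was below each PBS array. The log2 difference was -1.33 (standard error 0.28, adjusted p = 0.0053), 2.51-fold lower with IL-4, and it was called with any 1 array left out, at differences from -1.59 to -1.03. The IL-4 mean of 5.20 lies within the levels of 1057 olfactory receptor genes, which are used mainly in the nose and whose means had a median of 4.05 and a 95th percentile of 5.41, so the size of the fall cannot be read exactly. Fcgr1a, the high-affinity receptor for IgG, measured 6.91, 7.09, 6.34 and 6.91 on the IL-4 arrays, against 7.43, 7.29, 7.01 and 8.30 on the PBS arrays. The groups overlapped through IL-4 array 2 and PBS array 3. The log2 difference of -0.70 (standard error 0.26, 95% interval -1.26 to -0.13) did not pass after adjustment (adjusted p = 0.061). It was -0.43 (adjusted p = 0.11) without PBS array 4 and -0.86 (adjusted p = 0.038) without PBS array 3, the only one of 8 arrays whose omission gave a call.

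The gamma chain itself, Fcer1g, without which these activating receptors do not reach the surface in mice, measured 15.12, 15.15, 15.02 and 15.02 on the IL-4 arrays. On the PBS arrays it measured 14.56, 14.19, 14.05 and 15.88. PBS array 4 was above and the other PBS arrays below all IL-4 arrays. Over all arrays the log2 difference was 0.41 (standard error 0.33, 95% interval -0.31 to 1.12, adjusted p = 0.36), and without PBS array 4 it was 0.81 (standard error 0.14, adjusted p = 0.0026), so a single array decides this call.

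Set against the activating receptors Fcgr1a and Fcgr3a or the gamma chain Fcer1g of the same array, Fcgr2b was higher on every IL-4 array than on any PBS array. Set against the activating receptor Fcgr2a it was not. These 4 within-array comparisons were chosen after the values were seen, so they are a description with no test, and they show unequal change, not the ratio of the proteins. The log2 signal of Fcgr2b minus that of Fcgr3a was 6.67 to 7.32 on the IL-4 arrays, against 2.11 to 5.15 on the PBS arrays, a change of 3.59. For Fcgr2b minus Fcgr1a the ranges were 5.12 to 6.0 on the IL-4 arrays and 1.27 to 4.27 on the PBS arrays, a change of 2.96. For Fcgr2b minus Fcer1g they were -3.09 to -2.68 with IL-4 and -5.63 to -3.31 with PBS, a change of 1.86. In these 3 the treatments did not overlap and PBS array 4 was the closest of the PBS arrays to the IL-4 arrays. Fcgr2b minus Fcgr2a changed by 1.27 and overlapped, at -2.90 to -2.57 on the IL-4 arrays and -4.91 to -2.44 on the PBS arrays.

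Fcrl2 showed the largest difference of the 10 genes. Its product is related to Fc receptors in sequence, RefSeq gives it the synonym Fcrls, and Fcrls is known in mice as a gene of microglia. It measured 4.64, 4.52, 4.45 and 4.30 on the IL-4 arrays, against 10.00, 7.97, 9.13 and 10.99 on the PBS arrays. All IL-4 values were below the 95th percentile of the olfactory receptor genes, and all PBS values far above it. The log2 difference was -5.04 (standard error 0.49, adjusted p = 9.0e-05), which cannot be read as an exact size because of the dim IL-4 level, and with 1 array left out at a time it ran from -5.56 to -4.56. Among the PBS arrays Fcrl2 and the mean of the microglial markers were both highest on array 4, and the part of microglial number in the difference was not tested.

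Cd22, a sialic acid binding lectin with ITIMs that is a classical receptor of B cells and is also made by microglia in mice, had the smallest spread relative to its difference. It measured 5.73, 5.53, 5.81 and 5.63 on the IL-4 arrays, against 8.02, 7.66, 7.54 and 7.90 on the PBS arrays. The treatments were apart by more than 1 log2 unit, and Cd22 was the only one of the 10 for which PBS array 4 was not the highest PBS array. The log2 difference was -2.10 (standard error 0.13, 95% interval -2.40 to -1.81, adjusted p = 5.4e-06), 4.30-fold lower with IL-4, and it ran from -2.18 to -2.02 with 1 array left out at a time. The IL-4 mean of 5.68 lies only just above 5.41, the 95th percentile of the olfactory receptor genes. The size of this fall may therefore not be exact either.

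**Figure D2:**
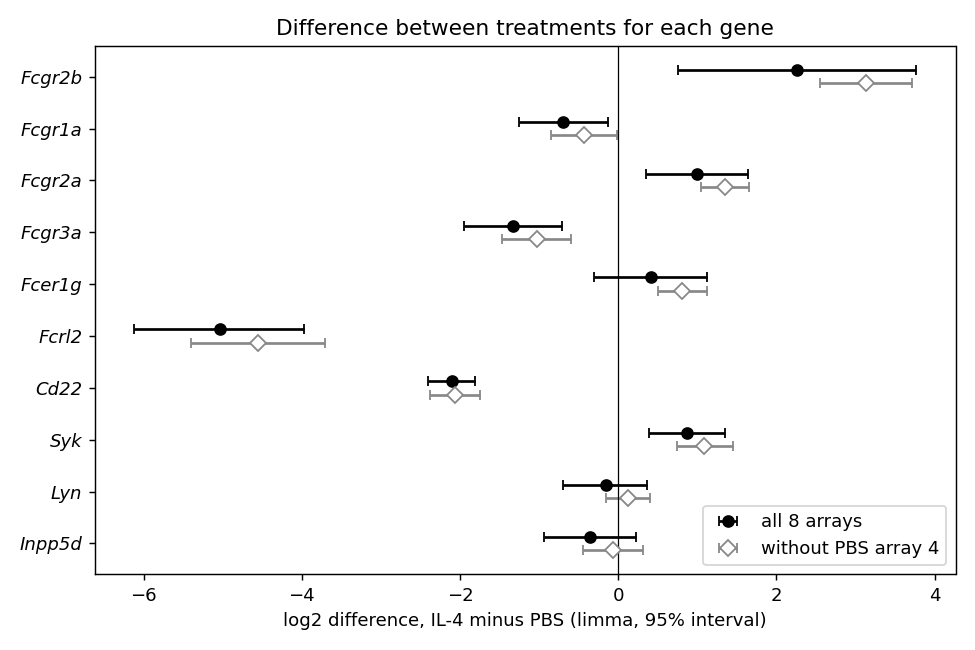
Log2 difference (IL-4 minus PBS) of each gene with its 95% interval from limma, for all 8 arrays (filled circles) and without PBS array 4 (open diamonds). The interval of Fcgr2b spans 0.76 to 3.77 with all arrays and 2.55 to 3.71 without PBS array 4, Fcer1g moves clear of 0, and Cd22 hardly moves.

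Of the kinases and the phosphatase downstream, Syk passed the test, and Lyn and Inpp5d did not. Syk, the kinase that binds phosphorylated ITAMs, measured 7.35, 7.56, 7.62 and 7.93 on the IL-4 arrays, against 6.30, 6.68, 6.59 and 7.40 on the PBS arrays. The groups overlapped only in that IL-4 array 1 lay below PBS array 4. The log2 difference was 0.87 (standard error 0.22, 95% interval 0.39 to 1.35, adjusted p = 0.012), or 1.83-fold, and it was called with any 1 array left out, at differences of 0.72 to 1.09. By the exact permutation test Syk gave p = 0.057, and it also missed the threshold by the methods' t-test (adjusted p = 0.058). Lyn, a Src family kinase that serves both activating and inhibitory receptors, measured 8.29 to 8.46 on the IL-4 arrays and 8.12 to 9.39 on the PBS arrays. Its log2 difference was -0.16 (95% interval -0.70 to 0.37, adjusted p = 0.64) and turned to 0.12 (adjusted p = 0.48) without PBS array 4. Inpp5d, which encodes the lipid phosphatase SHIP1, measured 7.17 to 7.66 on the IL-4 arrays and 7.20 to 8.58 on the PBS arrays. Its log2 difference was -0.36 (95% interval -0.94 to 0.23, adjusted p = 0.33).

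Relative to the microglial markers of the same array, 7 of the 10 genes lay apart between treatments, though limma called only 4 of these 7. After the mean of the 27 markers was subtracted on each array, the IL-4 arrays were all higher for Fcgr2a and all lower for Fcgr1a, Fcgr3a, Fcrl2, Cd22, Lyn and Inpp5d. Such separation was seen in 10.1% of all probe sets on this scale, with the IL-4 arrays higher in 2.42% and lower in 7.69%. Before the subtraction it was seen in 32.8%. The subtraction adds the spread of the marker mean to each probe set that does not follow the markers. The 10.1% is therefore no fair measure for the 7 of 10, which is given as a description. A limma fit on the marker-relative values, in which every probe set received the same estimate of spread, passed Fcgr1a (adjusted p = 0.04), Fcgr3a, Fcrl2, Cd22 and also Fcgr2b, which overlapped. It did not pass Fcgr2a (adjusted p = 0.17), Lyn (adjusted p = 0.38), Inpp5d (adjusted p = 0.20), Syk (adjusted p = 0.27) or Fcer1g (adjusted p = 0.86). Lyn then spanned -0.41 to -0.23 on the IL-4 arrays, against 0.04 to 0.21 on the PBS arrays, PBS array 4 included at 0.12. Inpp5d spanned -1.52 to -1.04 on the IL-4 arrays, against -0.90 to -0.54 on the PBS arrays. Fcgr2b spanned 3.25 to 3.67 on the IL-4 arrays, against 0.46 to 1.54 on PBS arrays 1 to 3 and 3.30 on PBS array 4, so its PBS arrays remained far apart on this scale too. The subtraction moves each gene's difference down by 0.30, the difference of the marker mean between treatments, and which part of it stands for cell number was not tested.

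**Figure D3:**
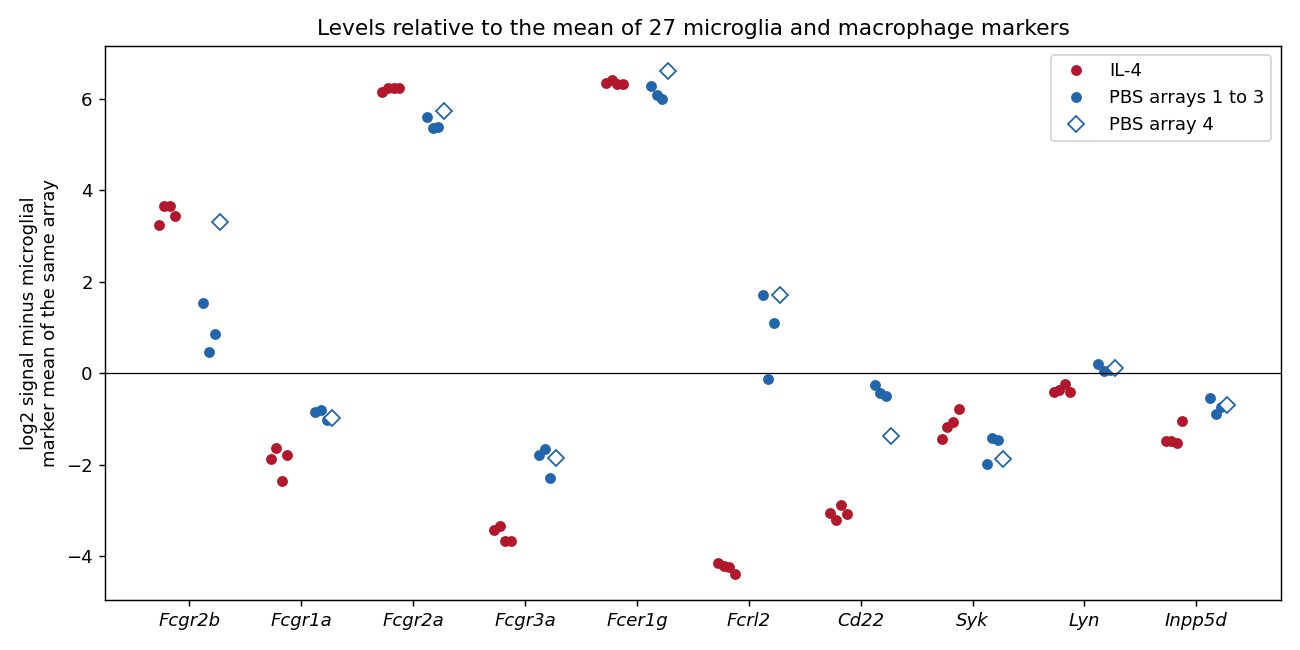
Log2 signal of each of the 10 genes minus the mean of 27 microglia and macrophage markers on the same array, for IL-4 arrays (red), PBS arrays 1 to 3 (blue circles) and PBS array 4 (open diamond). Heights are to be compared within a gene and not between genes, and for Lyn, Fcgr1a and Fcgr3a PBS array 4 joins the other PBS arrays on this scale.

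For 5 of the 10 genes the RefSeq table holds a promoter window (300 bases, from 250 before to 50 after the annotated start, build GRCr8), 6 windows in all because Fcgr2a has a pair of starts. They were searched on both strands for TTC and GAA with any 4 bases between them, the spaced palindrome that STAT6 of the IL-4 pathway prefers, and for GAGGAAGT, a core bound by the myeloid factor PU.1. Each was counted whether or not it overlapped the other. Of 33469 promoter windows, 7.28% held the first and 2.42% the second. Shown here are the 250 bases before the start for Fcgr3a, Cd22 and Inpp5d, with matches in capitals. For Fcgr3a and Cd22 each IL-4 array was below each PBS array, as for Fcrl2, which has no window. Inpp5d was the only gene of these 5 with a match to the STAT6 type of site.
Fcgr3a (chr13:85782386-85782635, plus strand): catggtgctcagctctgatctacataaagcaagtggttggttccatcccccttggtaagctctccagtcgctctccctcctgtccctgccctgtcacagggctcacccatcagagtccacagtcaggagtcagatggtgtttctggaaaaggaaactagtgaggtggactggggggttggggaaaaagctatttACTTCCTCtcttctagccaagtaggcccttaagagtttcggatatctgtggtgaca
Cd22 (chr1:95259731-95259980, minus strand): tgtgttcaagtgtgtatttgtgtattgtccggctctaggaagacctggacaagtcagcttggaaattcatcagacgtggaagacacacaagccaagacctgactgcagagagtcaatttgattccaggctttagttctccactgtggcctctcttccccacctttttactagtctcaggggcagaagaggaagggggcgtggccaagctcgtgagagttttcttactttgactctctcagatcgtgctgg
Inpp5d (chr9:95735283-95735532, plus strand): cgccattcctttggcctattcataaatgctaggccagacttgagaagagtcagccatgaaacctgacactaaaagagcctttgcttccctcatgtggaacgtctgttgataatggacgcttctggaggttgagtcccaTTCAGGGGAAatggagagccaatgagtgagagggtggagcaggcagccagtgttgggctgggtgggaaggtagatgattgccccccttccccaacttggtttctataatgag
In Fcgr3a the capitals mark GAGGAAGT on the opposite strand, at positions -56 to -49 counted from the start. In Inpp5d they mark the STAT6 type of site at -112 to -103, and GAGGAAGT also spans its start, from -3 to 5. The windows of Cd22, Syk and Fcgr2a held neither. These are matches of letters, not binding sites.

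The rest of the pathway was taken from 6 lists of 112 measured genes, in which 18 rose, 19 fell and 75 showed no call, beside 12% of all probe sets higher and 19.7% lower. Their median log2 difference was -0.02, beside -0.068 over all probe sets, so neither the counts nor the median are read as particular to the pathway. Of 10 other Fc receptor genes, Fcrla and Ms4a2 rose and Fcer1a, Fcrl6 and Pigr fell. All of these called genes lay below the 95th percentile of the olfactory receptor genes on every array. With probe sets under the 40th percentile left out they were no longer tested, and 0 genes of this list rose and 0 fell. Fcer1a, the IgE-binding chain of mast cells, differed by -1.03 on the log2 scale (standard error 0.23, adjusted p = 0.0068), with 3.50 to 4.09 on the IL-4 arrays and 4.17 to 5.35 on the PBS arrays, all below the 95th percentile of the olfactory receptor genes. Of 19 genes of ITAM adaptors and coupled receptors, 0 rose by limma at the adjusted threshold and 2 fell. These were Trem1, with a log2 difference of -0.49, and Klrk1, with one of -0.40, both under 5 on every array. With 1 array left out at a time, 0 to 1 genes of this list rose and 0 to 3 fell.

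Genes of the other ITIM receptors moved both ways and held some of the largest differences. Of 21 measured, Clec4a3, Pecam1, Sirpa, Clec4a and Cd300a rose, Siglec5, Clec12a, Lair1, Siglec15 and Cd72 fell, and the other 11 showed no call. Clec4a3, a C-type lectin receptor of myeloid cells, measured 9.94, 9.99, 9.83 and 9.60 on the IL-4 arrays, against 7.33, 7.67, 7.02 and 8.59 on the PBS arrays, or 2.19 higher with IL-4 on the log2 scale (standard error 0.28, adjusted p = 4.0e-04). Pecam1, the adhesion molecule of endothelium and leukocytes, had one of 1.85. Siglec5, a sialic acid binding receptor like Cd22, measured 4.18, 4.00, 4.06 and 4.04 on the IL-4 arrays, against 5.93, 5.91, 5.47 and 5.98 on the PBS arrays, and its PBS arrays lay close together as those of Cd22 did. Its log2 difference was -1.75 (standard error 0.13, adjusted p = 2.0e-05), and since its IL-4 level is near the median of the olfactory receptor genes this size cannot be read exactly. Without PBS array 4 the counts of this list were 7 up and 3 down.

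**Figure D4:**
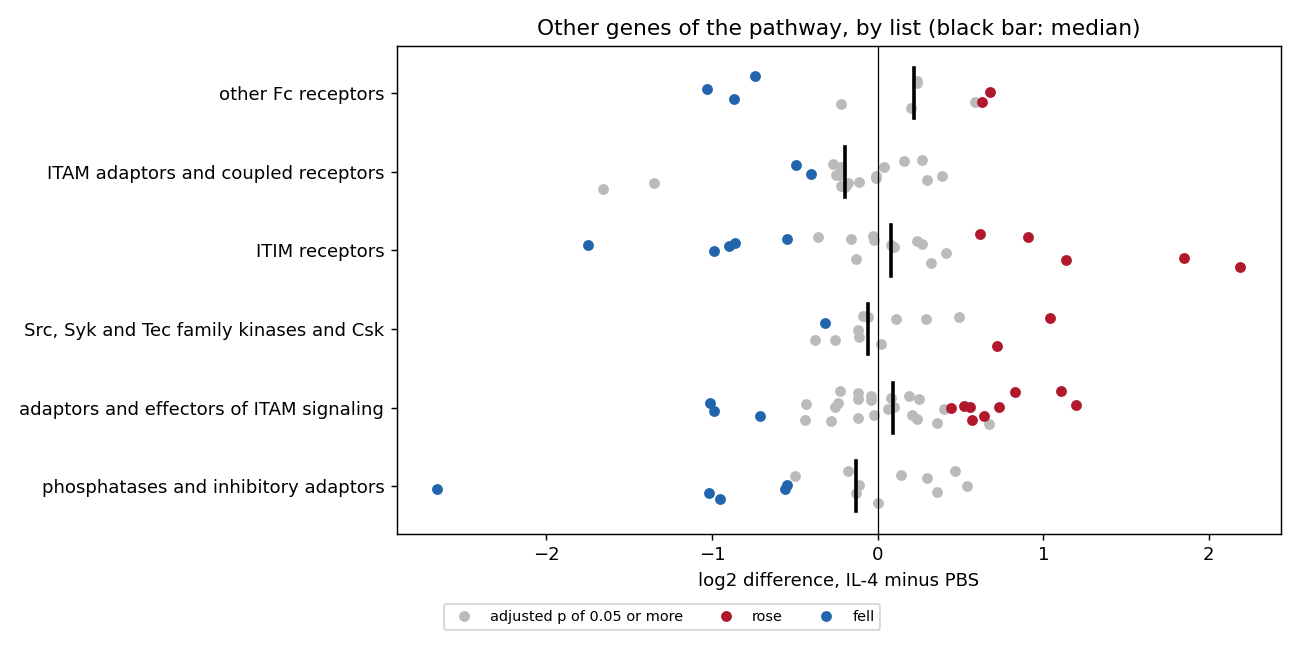
Log2 difference (IL-4 minus PBS) of each measured gene in the 6 pathway lists, 1 point a gene, in red or blue where it rose or fell at an adjusted p under 0.05 and grey otherwise, with each list's median as a black bar. The ITIM receptors spread to both sides, with Clec4a3 at 2.19 and Siglec5 at -1.75, and the coloured points of the phosphatases and inhibitory adaptors all lie to the left.

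Among kinases, Src rose by 1.04 on the log2 scale (standard error 0.16, adjusted p = 0.0012), Ptk2b rose by 0.72 and Fyn, the Src family kinase of oligodendrocytes, had -0.32 (adjusted p = 0.045), while the other 10 of 13 did not pass. The call of Fyn was lost with any 1 of the 8 arrays left out (adjusted p = 0.051 to 0.11). Of 34 adaptors and effectors, 9 rose and 3 fell. The number that rose was 4 to 13 with 1 array left out at a time, at its highest without PBS array 4 and at its lowest without PBS array 3. Vav3, a signaling protein downstream of Syk, rose by 1.11 on the log2 scale (standard error 0.14, adjusted p = 4.1e-04). Prkcd, a protein kinase C, differed by 1.20 (adjusted p = 0.049), with PBS array 4 at 10.23, above all IL-4 arrays at 9.74 to 10.13, and lost its call with any 1 of the other 7 arrays left out (adjusted p = 0.079 to 0.12). Those that fell were the adaptor Sh3bp2 at -1.01, the Syk substrate Blnk at -0.99 and Prkcb at -0.71.

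Of 15 phosphatases and inhibitory adaptors, 0 rose by limma at the adjusted threshold and 5 fell, namely Inpp4a, Pag1, Inppl1, Ptpn22 and Dok3. Ptpn22 and Dok3 lay under 5 on every array, and 3 fell with probe sets under the 40th percentile left out. After quantile normalization 1 gene of this list rose and 5 fell. Inpp4a, an inositol phosphatase that acts on the product of SHIP enzymes, measured 9.95, 9.95, 9.79 and 9.91 on the IL-4 arrays, against 12.92, 12.77, 12.28 and 12.26 on the PBS arrays. The groups were apart by more than 2 log2 units, and Inpp4a differed by -2.66 on the log2 scale (standard error 0.16, adjusted p = 3.5e-06). Inppl1, which encodes SHIP2, the relative of Inpp5d, had a difference of -0.95 and Pag1, a membrane adaptor that recruits Csk, one of -1.02. Both SHIP2 and Inpp4a are also made outside the immune system. Without PBS array 4, 2 genes of this list rose and 4 fell.

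The genes whose profiles over the 8 arrays were most like those of 3 of the receptors were found by the mean absolute difference of log2 values centred per gene, among 15037 genes. For Cd22 they were Cd34, Zmat3 and Siglec5, at 0.139, 0.147 and 0.184 log2 units. For Fcrl2 they were Casr, Itm2a and Anxa3, at 0.703, 0.716 and 0.770, and for Fcgr2b they were Ifi47, Lcn2 and C1qb, at 0.474, 0.507 and 0.538. The closest matches of Fcgr2b were thus less close than those of Cd22, whose values on the PBS arrays differ less.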

How the data were processed

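Total RNA of 4 IL-4 and 4 PBS cultures was hybridized to Affymetrix Clariom S rat arrays, 1 array per culture. The authors deposited log2 signals per probe set after RMA (background correction, quantile normalization and summary), with Affymetrix Expression Console and Transcriptome Analysis Console 4.0 and build rn6 named in the submitters' processing notes. RMA is meant to make array distributions alike, so changes are relative to the bulk of the transcriptome. It also compresses changes of dim probe sets. Array medians were 6.13 to 6.16, but the highest signal was 19.92 to 19.93 on IL-4 arrays and 19.81 to 19.82 on PBS arrays. The deposited distributions thus differed slightly between treatments at the top. An array gives no depth, so precision rests on having 4 arrays per treatment.

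Gene names came from the platform annotation (15049 of 23188 probe sets with a single symbol, 8139 without), and the brightest such probe set stood for a gene. All 23188 probe sets entered a linear model of treatment alone (limma 3.58.1 under R 4.3.3, moderated by eBayes), with Benjamini-Hochberg adjustment over all of them and a threshold of 0.05. The fit was tested on simulated data with independent noise of equal spread in both treatments. All 10 genes had the higher SD on the PBS arrays, and that test does not cover such unequal spread. Exact permutation tests were two-sided over 70 assignments, with 0.029 as the smallest p. Python 3.11.15, pandas 2.3.3, numpy 2.4.6 and scipy 1.17.1 were used for the rest, and matplotlib 3.10.9 for plots.

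The 10 genes, the 6 pathway lists and the 7 marker lists were chosen with earlier results of these data known. The genes named were the 10, up to 3 with the largest called difference from each pathway list, the 3 nearest profiles of Fcgr2b, Fcrl2 and Cd22, and 6 defining microglial markers. Other pathway genes, Fcgr2al1, the within-array comparisons of Fcgr2b and the counts of separated arrays on marker-relative levels were chosen after values were seen. Alternatives were other normalizations, variance models, tests, filters and array weights, subtraction of the microglial mean, a replicate block and each array left out in turn. Promoter sequences are RefSeq's, build GRCr8.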

Additional observations from a re-analysis of the deposited data

Results flagged for a closer look

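In each group of 4 arrays, the highest and lowest array was compared with its nearest neighbour relative to the group's range (Dixon's criterion), for 20 groups of the 10 genes and 26 groups of the gene lists. Chance alone picks out about 1 in 20 groups, and 1 of the 20 and 4 of the 26 were picked out. The groups share the same 8 arrays, and all 4 rest on PBS array 4. They are thus not independent, and the counts cannot be set against the rate of chance. For Fcgr2a, IL-4 array 2 at 14.97 stood off from the other IL-4 arrays, which all read 14.93, so the gap is small in itself. PBS array 4 stood off from the other PBS arrays in the mean log2 level of the ITAM adaptors and coupled receptors, at 5.65. It stood off likewise in the mean of the Src, Syk and Tec family kinases with Csk, at 7.02, and in the mean of the adaptors and effectors of ITAM signaling, at 9.48. In the mean of the astrocyte markers PBS array 4 was the low array, at 8.45.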

How the results depend on the processing

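Fcgr3a, Fcrl2 and Cd22 kept direction and call under each alternative run. With 1 array left out at a time, the log2 difference ran from 1.79 to 3.13 for Fcgr2b, 0.82 to 1.35 for Fcgr2a, -0.86 to -0.43 for Fcgr1a, 0.20 to 0.81 for Fcer1g and -0.30 to 0.12 for Lyn, which turned to 0.12 only without PBS array 4. The count of the 10 genes that rose then ran from 1 to 4 and that of pathway genes that rose from 13 to 29, with 29 reached without PBS array 4. Quantile normalization over all arrays kept the calls of the 10 genes, with 20 pathway genes up and 15 down. Of the pathway genes named, Fyn, Trem1 and Klrk1 then missed the threshold. With an intensity trend and robust prior, Fcgr2b was at 2.26 with adjusted p = 0.064. By the methods' t-test with Benjamini-Hochberg adjustment 0 of the 10 genes rose, against 3 by limma and 7 at an unadjusted p under 0.05 in either direction by limma, and 11 pathway genes rose. Fcgr2b then stood at 2.26 (adjusted p = 0.12 by a test other than limma), Fcgr2a at 1.00 (adjusted 0.10) and Syk at 0.87 (adjusted 0.058). By the exact permutation test, unadjusted, Fcgr2b at 2.26 and Fcgr2a at 1.00 gave p = 0.14 each and Syk at 0.87 gave p = 0.057. With the microglial mean subtracted, Fcgr2b as 1 of the 10 genes and 2 pathway genes rose by limma (0 of the 34 adaptors and effectors), Fcgr1a passed at -1.0, and Fcgr2a at 0.69 and Syk at 0.57 did not. Without probe sets under the 40th percentile, 8 pathway genes fell, since many dim genes were no longer tested. Same-numbered arrays did not deviate together (correlations of deviations from -0.02 to 0.01). This gives no sign that the numbers pair the cultures, but it cannot exclude a pairing, and the labels do not state one. With the replicate number as a block Fcgr1a passed at -0.70 (adjusted p = 0.026 by limma), 3 of the 10 genes rose and 4 fell. Each gene had 1 probe set, so the dimmest probe set per gene was no alternative for the 10. For the other genes named, 217 alternatives kept the call and 48 lost it in the same direction. Other causes of these shifts were not tested.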

Other observations

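Tyrobp, Trem2 and Clec7a, from the list of ITAM adaptors and coupled receptors, were widely spread on the PBS arrays. They were picked out here after their values were seen. Tyrobp, the adaptor DAP12, measured 9.52 to 9.74 on the IL-4 arrays and 9.27 to 10.68 on the PBS arrays, with a log2 difference of -0.11. Trem2, a lipid receptor that uses it, measured 5.67 to 6.03 on the IL-4 arrays, against 7.23, 6.22, 6.31 and 9.06 on the PBS arrays. Clec7a, the beta-glucan receptor Dectin-1, measured 8.57 to 8.94 on the IL-4 arrays, against 10.93, 8.41, 9.74 and 12.66 on the PBS arrays. PBS array 4 was the highest array for all of them, and none passed the adjusted threshold by limma. Over the whole list it was the highest PBS array for only 8 of 19 genes. Trem3, for example, measured 8.01, 8.89, 8.67 and 8.53 on the PBS arrays, and Clec4e 5.53, 6.33, 5.71 and 5.55.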
